A study of Mus musculus with 9 samples.

Results

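Nuclear receptors are transcription factors that carry a zinc finger domain for DNA and a pocket for a small lipophilic ligand such as a steroid, a fatty acid, a bile acid or a vitamin derivative. Many of them bind DNA as a pair with a retinoid X receptor (RXR), others bind as homodimers or monomers, and ligand binding exchanges corepressors for coactivators. In the small intestine they are known for the control of lipid absorption, detoxification, enterocyte identity and salt transport. A set of 35 genes of this superfamily, named by gene symbol and not by any measured value, was described among the 21868 genes of a count table from mouse (Mus musculus) jejunum. The set leaves out other receptors of the superfamily, such as Ppara, Vdr, Nr1h4 and Nr3c1, which are given below as partner genes.

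Bulk RNA-seq was made from jejunum after 24 h of TPN, starvation or sham treatment, with 3 libraries in each of the 3 groups. TPN is total parenteral nutrition, the infusion of nutrients into a vein. Each library came from a 5 cm piece of jejunum that was cut open lengthwise, so the RNA can come from every layer of the gut wall. The labels give no strain, sex or age and do not say what the sham procedure was, and replicates are called biological without a statement that each is a separate mouse. If some share a mouse, the p-values below describe the spread of these libraries, which may be technical.

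Total counts ran from 7779877 in TPN replicate 2 to 12084278 in sham replicate 3, and the 35 members together took 0.249% to 0.329% of them. All 8 enterocyte markers had reads, with summed levels of 33251 to 39756 CPM (reads scaled by library size to a common total) in TPN, 26272 to 100723 in starvation and 40225 to 74036 in sham. By markers of other tissue or of position along the villus, 3 of the 9 libraries stood apart most, each with the highest level of its marker set. Sham replicate 2 had 11297 summed CPM of 12 smooth muscle markers, against 482 to 1431 in TPN, 817 to 1598 in starvation and 1316 and 1430.2 in the other sham libraries. Starvation replicate 3 had 5458 summed CPM of 5 villus tip markers and 135 of 5 crypt stem cell markers, against 833 and 1349, and 636 and 499, in the other starvation libraries. TPN replicate 2 had 12919 summed CPM of 6 pancreatic acinar markers, against 235 and 15.9 in the other TPN libraries, 17.0 to 1771 in starvation (highest in replicate 1) and 16.3 to 2659 in sham (highest in replicate 1). Starvation replicate 1 and sham replicate 1 thus also stood apart from their groups by this signal. Both were kept in the 2 reduced fits named next. Results were computed with all 9 libraries and again without sham replicate 2 and starvation replicate 3, the pair with the muscle and villus signals. This pair was picked by marker levels in these same libraries, so fits without it are not an independent check. A further alternative, chosen after seeing the data, left out TPN replicate 2 as well.

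The jejunum held a broad repertoire of nuclear receptor transcripts over a range of more than 3 orders of magnitude. Levels between genes are compared as CPM per kilobase of annotated exon, averaged over the 9 libraries, and 31 of the 35 members had a read in every library. In this unit 13 members were at 10 or above, 12 between 1 and 10, and 10 below 1. The factors of enterocyte identity led, with Hnf4a at 183 and Hnf4g at 116 CPM per kilobase. Esrra, an estrogen-related receptor of mitochondrial metabolism, stood at 77.0, the orphan receptor Nr2f6 at 52.8, the common partner Rxra at 46.3 and the pregnane X receptor Nr1i2 at 43.4. Nr2f6 shares 54.4% of its exonic bases with Ocel1 on the opposite strand. Whether counting used strand is not given, so its level and rank may include reads of Ocel1.

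Below these came the thyroid hormone receptor Thra (36.5 CPM per kilobase), the liver X receptors Nr1h2 (32.5) and Nr1h3 (20.5), the constitutive androstane receptor Nr1i3 (21.1), Ppard (20.6), the mineralocorticoid receptor Nr3c2 (12.4) and Rxrb (11.5). The level of Nr1i3 may likewise include reads of Tomm40l, which shares 74.9% of its exonic bases on the opposite strand. The 12 members of the middle range were Rara, Nr2c2, Nr5a2, Thrb, Pparg, Nr2c1, Nr6a1, Nr2f2, Nr4a1, Esrrg, Nr4a2 and Rarg, from 8.34 for Rara to 1.45 for Rarg. The sex steroid receptors were near the floor of the measurement, with the estrogen receptors Esr1 at 0.144 and Esr2 at 0.0882 and the progesterone receptor Pgr at 0.188 CPM per kilobase. Rora (0.971), Nr2e3 (0.615), Nr4a3 (0.378), Esrrb (0.191) and Nr2f1 (0.154) were also below 1. Nr5a1, which drives steroid synthesis in adrenal gland and gonad, had 3 reads over the TPN libraries, 11 over starvation and 4 over sham, and Esr2 had 11 reads over TPN, 9 over starvation and 8 over sham. Rxrg had no read in the TPN or starvation libraries and 5 in sham. Rxrg, Nr5a1 and Esr2 were too low to be tested, which left 32 members.

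**Figure D1:**
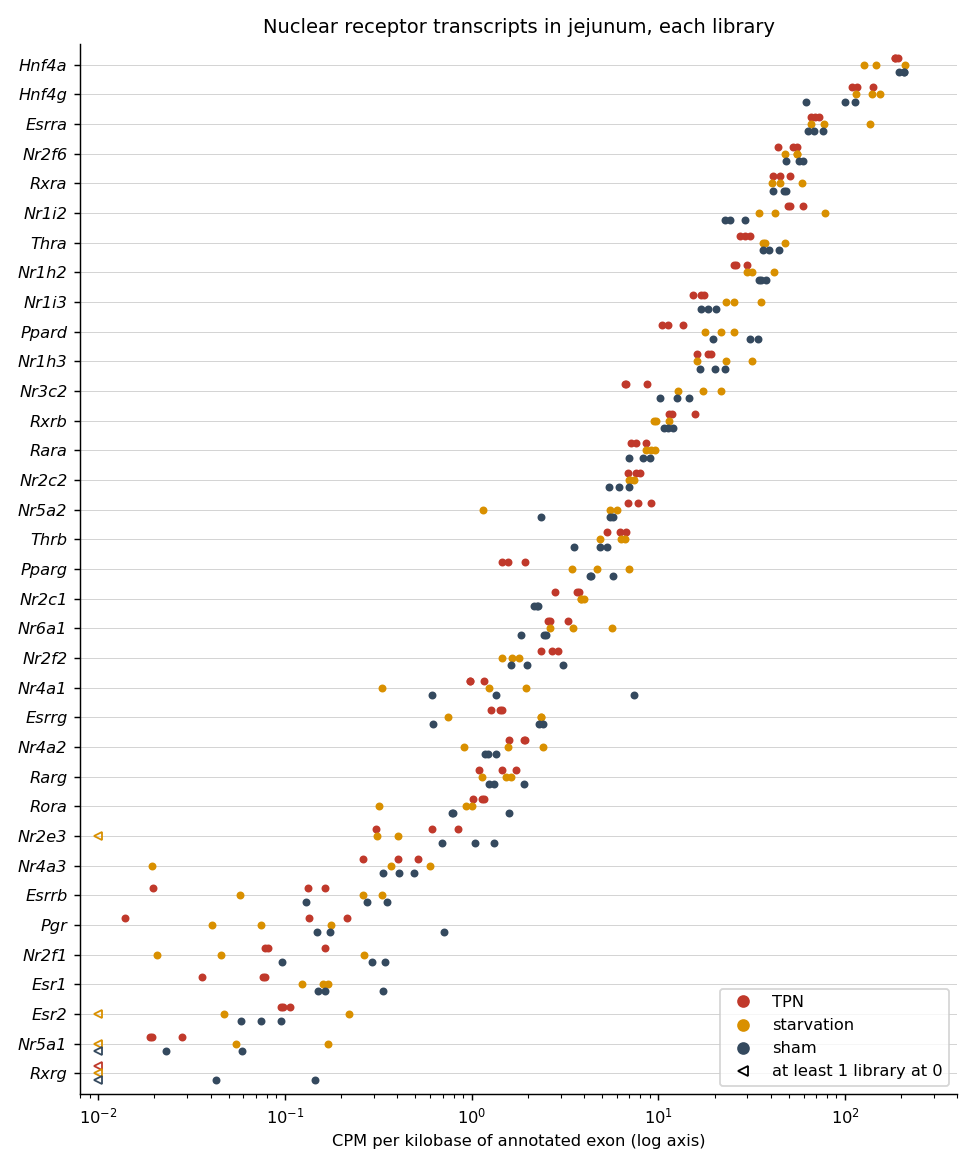
Transcript level of each of the 35 nuclear receptor genes in each of the 9 libraries, as CPM per kilobase of annotated exon on a log axis, with genes ordered by their mean (TPN red, starvation orange, sham blue). Hnf4a and Hnf4g lie at the top, the sex steroid receptors, Nr5a1 and Rxrg at the bottom, and open triangles at the left edge mark groups with at least 1 library at 0.

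Of the 6 members with the highest level, Esrra, Nr2f6 and Rxra had libraries of all 3 groups in 1 overlapping range. Hnf4a (GRCm38 chr2:163506808-163572910) had 927, 893 and 893 CPM in TPN, 611, 707 and 1012 in starvation and 995, 936 and 996 in sham. The widest spread was among the starvation libraries, where replicate 3 was the highest of the 9 and replicate 1 the lowest, and each TPN library was just below each sham library. Esrra (chr19:6910977-6921813) had 319.7, 301 and 287 CPM in TPN, 288, 337 and 599 in starvation and 298, 279 and 333 in sham, and starvation replicate 3 again stood above the rest. Nr2f6 (chr8:71374123-71381960) had 156, 165 and 131 CPM in TPN, 165, 142 and 166 in starvation and 169, 144 and 179 in sham, with full overlap. Rxra (chr2:27676440-27762957) had 244, 276 and 224 CPM in TPN, 221, 246 and 322 in starvation and 262, 224 and 256 in sham, also with overlap. Hnf4g and Nr1i2 are given with their families below.

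Each difference below is a log2 fold change with its standard error, tested over 14668 genes with edgeR's quasi-likelihood test, and a gene passed at a Benjamini-Hochberg adjusted p under 0.05. With TPN against sham, 3 of 32 tested members passed, 1 higher and 2 lower, where 8.6% of all tested genes passed (3.48% higher and 5.12% lower). With starvation against sham, 1 member passed, as higher, where 3.69% of all genes passed (2.55% higher and 1.14% lower). With TPN against starvation, 3 members passed, all lower in TPN, where 5.84% of all genes passed (1.94% higher and 3.9% lower). The members that passed were 9.38%, 3.12% and 9.38% of those tested in these comparisons, near the background in each. The 7 calls fell on 6 genes, Ppard, Pparg, Nr1i2, Nr1i3, Nr2c1 and Nr3c2, and 26 tested members passed in no comparison.

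The median log2 fold change of the 32 members was -0.09 with TPN against sham (all genes -0.02), -0.01 with starvation against sham (all genes -0.01) and -0.16 with TPN against starvation (all genes -0.03). The libraries of the compared groups did not overlap for 12 members (37.5%) with TPN against sham, where 42.7% of all genes did not. The same held for 6 members (18.75%, all genes 25.1%) with starvation against sham and for 12 members (37.5%, all genes 33.6%) with TPN against starvation. The sham libraries are shared by both comparisons in which they serve as the control. Likewise, the TPN libraries are shared by both comparisons with TPN, and the starvation libraries by both with starvation. The calls of Pparg in both comparisons with TPN are therefore not separate observations.

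**Figure D2:**
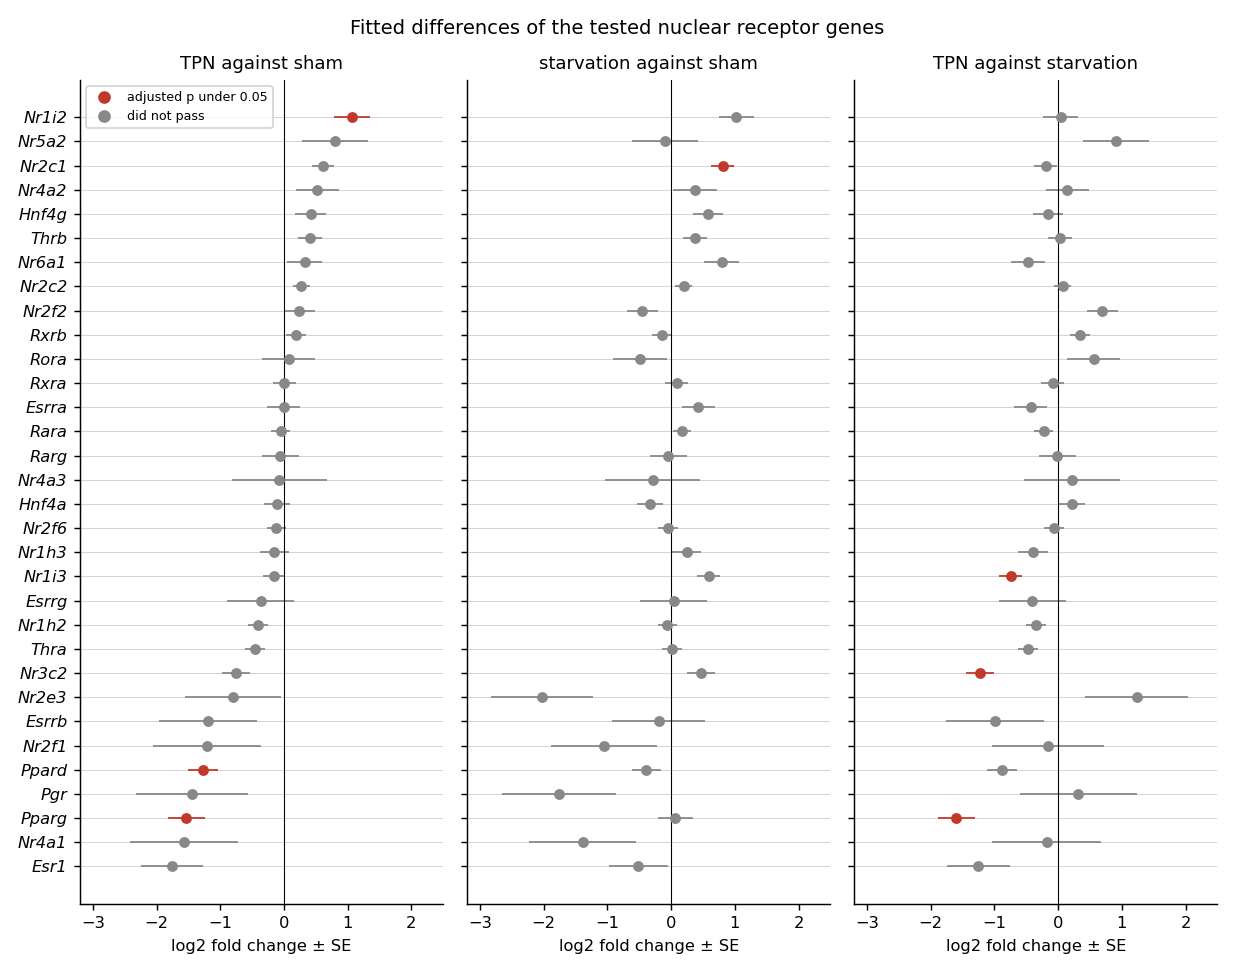
Log2 fold change with its standard error for the 32 tested nuclear receptor genes in each comparison, ordered by the value with TPN against sham, with genes at an adjusted p under 0.05 in red. The 7 red points are Nr1i2, Ppard and Pparg with TPN against sham, Nr2c1 with starvation against sham, and Nr1i3, Nr3c2 and Pparg with TPN against starvation, and the grey points are the members that did not pass.

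The lipid-sensing peroxisome proliferator-activated receptors (PPARs) held the largest log2 fold changes among the 7 calls, in Pparg with both comparisons of TPN and in Ppard. These receptors bind fatty acids and their derivatives and switch on genes of fatty acid uptake, storage and oxidation. Ppard, the widely expressed delta form (GRCm38 chr17:28232700-28301474, plus strand), had 102, 84.4 and 79.0 CPM in TPN, 164, 134 and 190.0 in starvation and 258, 147 and 234 in sham. Each TPN library was below each library of the other groups, and starvation overlapped sham. Ppard fell with TPN against sham, by a log2 fold change of -1.27 ± 0.23 (edgeR quasi-likelihood adjusted p = 0.0134). It did not pass with TPN against starvation (-0.88 ± 0.23, adjusted p = 0.0567) or with starvation against sham (-0.39 ± 0.23, adjusted p = 0.333). In bulk tissue, fewer cells of a type and less RNA per cell cannot be told apart, here or in any result below.

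Pparg, the gamma form known from fat cells and also present in gut epithelium (GRCm38 chr6:115360951-115490399, plus strand), had 4.61, 4.29 and 5.69 CPM in TPN, 10.1, 13.8 and 20.6 in starvation and 16.8, 12.9 and 12.7 in sham. This is 163 reads over the TPN libraries, 436 over starvation and 445 over sham. The TPN libraries lay below all 6 others, and starvation and sham overlapped. Pparg fell with TPN against sham (-1.53 ± 0.29, edgeR quasi-likelihood adjusted p = 0.0154) and with TPN against starvation (-1.60 ± 0.29, adjusted p = 0.0154). Starvation and sham differed by 0.07 ± 0.28 (adjusted p = 0.913). The summed level of 5 adipocyte markers was 110.1 to 158 CPM in TPN, 83.1 to 346 in starvation and 148 to 302 in sham, nearly all from Cidec. Adipoq and Plin1 were at 0 to 0.881 CPM in TPN, 0 to 3.12 in starvation and 0 to 15.5 in sham. The high value was sham replicate 3, and the other sham libraries were at 0 to 0.0982. Fabp4 had 3.54, 2.03 and 2.16 CPM in TPN, 3.03, 1.69 and 1.62 in starvation and 1.08, 0.640 and 3.67 in sham. Lep was at 0 in TPN and starvation and at 0 to 4.67 in sham, again highest in replicate 3. The part of fat cells in the Pparg result was not tested.

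The PPAR calls were lost in several fits that left out 1 library, in which fewer genes of the whole table passed too. Ppard lost its call without sham replicate 3 or any TPN library, Pparg with TPN against sham without sham replicate 1 or any TPN library, and Pparg with TPN against starvation without any TPN library. Over all genes, the 1261 calls with TPN against sham became 216, 223 and 242 without TPN replicate 1, 2 and 3. They became 563 and 395 without sham replicate 1 and 3. With TPN against starvation, 857 calls became 159, 137 and 124 without TPN replicate 1, 2 and 3. The log2 fold change without 1 of these libraries was -1.38 to -1.19 for Ppard, -1.66 to -1.39 for Pparg against sham and -1.73 to -1.52 against starvation. With the smooth muscle marker level as a covariate, Ppard passed (-1.58 ± 0.25, adjusted p = 0.016) and Pparg did not (-1.46 ± 0.36, adjusted p = 0.0681). Without sham replicate 2 and starvation replicate 3, Ppard was at -1.43 ± 0.13 with TPN against sham (adjusted p = 0.000113), -0.72 ± 0.15 with starvation against sham (adjusted p = 0.0118) and -0.72 ± 0.13 with TPN against starvation (adjusted p = 0.00612), and all passed. In the same fit Pparg was at -1.55 ± 0.22 with TPN against sham and -1.24 ± 0.22 with TPN against starvation (adjusted p = 0.00101 and 0.00477).

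The alpha form, Ppara, is no member of the set and is given here for the make-up of the PPAR family. Ppara, the fasting receptor of fatty acid oxidation, had 91.3, 89.9 and 73.6 CPM in TPN, 42.8, 59.95 and 45.5 in starvation and 25.3, 12.8 and 31.3 in sham, with no overlap between any 2 groups. It rose with TPN against sham (1.87 ± 0.29, edgeR quasi-likelihood adjusted p = 0.00773) and did not pass with starvation against sham (1.09 ± 0.29, adjusted p = 0.0691). Of all PPAR transcripts, counted per kilobase, Ppard made up 33.0% ± 1.85 in TPN, 54.7% ± 6.92 in starvation and 72.2% ± 1.22 in sham (mean ± SD, n = 3). Ppara made up 62.2% ± 2.30 in TPN, 32.8% ± 7.26 in starvation and 15.1% ± 3.34 in sham. Pparg made up 4.71% ± 1.19 in TPN, 12.5% ± 3.20 in starvation and 12.7% ± 3.10 in sham. The sham ranges of Pparg and Ppara overlapped, and in sham replicate 2 Pparg (16.0%) was above Ppara (12.2%). Per kilobase, the leading form was Ppara in the TPN libraries and Ppard in the starvation and sham libraries. The order in TPN rests on the joined exon lengths, 7514 bases for Ppard and 3836 for Ppara, which need not be those of the transcripts present. In CPM the TPN means were 88.4 for Ppard and 84.9 for Ppara, and Ppard was above Ppara in TPN replicates 1 and 3. With 3 libraries against 3 an exact two-sided permutation test cannot give a p below 0.1, so shares are given as values.

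**Figure D3:**
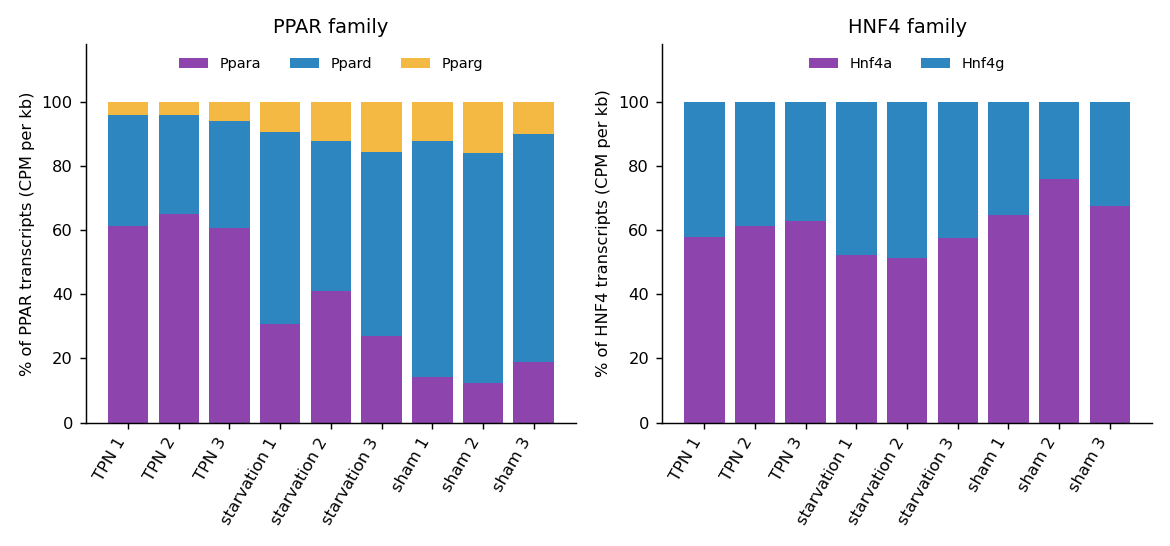
Share of each gene in its family's transcripts in every library, computed from CPM per kilobase, for the PPAR family (left) and the HNF4 family (right). Ppara takes 60.7% to 64.9% of PPAR transcripts in the TPN libraries and 12.2% to 18.7% in the sham libraries, and Hnf4a takes 51.2% to 57.6% of HNF4 transcripts in the starvation libraries and 64.7% to 75.8% in the sham libraries.

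The promoter windows of both PPAR members that changed are shown because these genes moved together in TPN. They are RefSeq windows on GRCm38.p6, from 250 bases before to 50 after a transcript start, read along the gene's strand. Capitals mark matches, on either strand, to 1 of 3 short motifs: AGGTCA, the core hexamer bound by many nuclear receptors, AGAACA, the core hexamer bound by steroid receptors, and TGACG, the core of the cyclic AMP response element. AGGTCA stood in 16.3% of all 32851 windows of the table, AGAACA in 19.0% and TGACG in 20.8%, and no 2 matches in the windows printed here share a base. The Ppard window is chr17:28232504-28232803 (plus strand) with 1 match to TGACG. The Pparg window is chr6:115360894-115361193 (plus strand), the most upstream of its 3 windows, with 1 match to AGGTCA.
Ppard: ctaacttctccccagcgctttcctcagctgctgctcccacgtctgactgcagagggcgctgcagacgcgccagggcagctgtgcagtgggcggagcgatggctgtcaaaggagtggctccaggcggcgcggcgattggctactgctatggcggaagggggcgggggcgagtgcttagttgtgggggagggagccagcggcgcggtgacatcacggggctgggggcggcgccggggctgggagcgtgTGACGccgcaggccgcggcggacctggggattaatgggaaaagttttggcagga
Pparg: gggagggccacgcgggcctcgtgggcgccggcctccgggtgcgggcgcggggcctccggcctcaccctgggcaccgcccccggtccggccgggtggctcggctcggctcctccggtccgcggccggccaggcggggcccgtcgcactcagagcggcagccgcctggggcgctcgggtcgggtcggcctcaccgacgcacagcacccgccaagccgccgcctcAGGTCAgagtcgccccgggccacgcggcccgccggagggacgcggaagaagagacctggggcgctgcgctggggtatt

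PPAR target genes that passed against sham were mostly higher, beside the lower Ppard and Pparg in TPN. Of 20 tested target genes, 5 were higher and 1 lower with TPN against sham (median log2 fold change 0.02), 3 higher and 1 lower with starvation against sham (median 0.36), and the median was -0.12 with TPN against starvation. Angptl4, an inhibitor of lipoprotein lipase, had 110.0 ± 11.1 CPM in TPN, 68.9 ± 27.0 in starvation and 9.68 ± 2.14 in sham. Pdk4, a kinase that inhibits pyruvate dehydrogenase, had 321 ± 12.9 CPM in TPN, 208 ± 108 in starvation and 48.9 ± 3.90 in sham. Both rose in TPN and in starvation against sham (edgeR quasi-likelihood adjusted p = 0.00046 and 0.00577 for Angptl4, 0.00279 and 0.0147 for Pdk4). Acot1, an acyl-CoA thioesterase, rose with TPN against sham (2.60 ± 0.39, adjusted p = 0.00639), and Plin2, a lipid droplet coat protein, fell with starvation against sham (-0.59 ± 0.12, adjusted p = 0.0323).

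The liver X receptors, sensors of oxysterols that drive cholesterol export, did not pass in any comparison. Nr1h2 had 85.7, 99.8 and 87.1 CPM in TPN, 100.4, 107 and 139.5 in starvation and 119, 116 and 126 in sham, with every TPN library below every library of the other groups. Its log2 fold change was -0.41 ± 0.15 with TPN against sham (edgeR quasi-likelihood adjusted p = 0.128), or -0.39 ± 0.10 without sham replicate 2 and starvation replicate 3 (adjusted p = 0.0181). Nr1h3 ranged from 40.8 to 48.2 CPM in TPN, 40.5 to 80.1 in starvation and 42.2 to 57.3 in sham. Of 13 tested target genes, 2 were higher with TPN against sham, 2 with starvation against sham and 1 with TPN against starvation. Abca1, the cholesterol exporter, had 84.3 ± 6.86 CPM in TPN, 69.8 ± 11.4 in starvation and 32.3 ± 5.68 in sham, and rose in both against sham. Srebf1, which encodes a regulator of fatty acid synthesis, had 587 ± 10.2 CPM in TPN, 174 ± 54.9 in starvation and 187 ± 32.9 in sham, and rose with TPN against either group (edgeR quasi-likelihood adjusted p = 0.00536 and 0.00575).

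The xenobiotic sensors Nr1i2 and Nr1i3 bind drugs, bile acids and plant compounds and induce detoxifying enzymes. Nr1i2, the pregnane X receptor (PXR; GRCm38 chr16:38248323-38294824, minus strand), had 152, 129 and 127 CPM in TPN, 88.5, 107 and 200.05 in starvation and 61.7, 58.3 and 74.2 in sham. Each sham library was below each library of the other groups, and TPN and starvation overlapped, with starvation replicate 3 the highest of the 9. Nr1i2 rose with TPN against sham (1.07 ± 0.28, edgeR quasi-likelihood adjusted p = 0.0452). With starvation against sham the difference was 1.03 ± 0.28 and did not pass (adjusted p = 0.0731), and between TPN and starvation it was 0.04 ± 0.27 (adjusted p = 0.948).

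The TPN call of Nr1i2 held in 11 of 21 alternative fits and was lost without any sham library, any TPN library or starvation replicate 2. It was also lost with the smooth muscle covariate (1.10 ± 0.37, adjusted p = 0.16). Without sham replicate 2 and starvation replicate 3, Nr1i2 was at 1.04 ± 0.13 with TPN against sham, 0.53 ± 0.14 with starvation against sham and 0.51 ± 0.13 with TPN against starvation, and all passed (adjusted p = 0.000613, 0.0314 and 0.0223). Its promoter window, shown because its direction in TPN was opposite to that of the PPAR members, lies at chr16:38294775-38295074 (minus strand) and holds 1 match to AGAACA, in capitals.
Nr1i2: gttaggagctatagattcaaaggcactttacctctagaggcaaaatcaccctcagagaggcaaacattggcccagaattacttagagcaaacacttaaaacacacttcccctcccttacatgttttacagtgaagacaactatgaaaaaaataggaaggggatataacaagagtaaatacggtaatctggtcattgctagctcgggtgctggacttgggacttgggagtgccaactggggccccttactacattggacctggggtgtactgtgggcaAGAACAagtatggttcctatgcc

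Nr1i3, the constitutive androstane receptor (CAR; GRCm38 chr1:171213970-171220701), had 77.8, 75.0 and 67.6 CPM in TPN, 101.09, 112 and 157 in starvation and 81.5, 74.9 and 89.4 in sham. The 3 starvation libraries were above all others, while TPN and sham overlapped. Nr1i3 fell with TPN against starvation (-0.75 ± 0.18, edgeR quasi-likelihood adjusted p = 0.0406) and did not pass against sham in TPN (-0.16 ± 0.18) or starvation (0.59 ± 0.18, adjusted p = 0.0943). However, 3304 of its 4414 exonic bases (74.9%) are shared with Tomm40l, a mitochondrial import gene on the opposite strand, and no source used here says that counting used strand. The ratio of Nr1i3 to Tomm40l CPM was 0.944 to 1.04 over the 9 libraries, and Tomm40l was at -0.73 ± 0.18 with TPN against starvation (adjusted p = 0.0417), so the Nr1i3 call cannot be assigned to either gene. It was lost in 9 of 21 alternative fits, among them those without any TPN library, sham replicates 1 or 3 or starvation replicate 2.

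Many genes that PXR and CAR are known to induce were lower in TPN, in the same libraries in which Nr1i2 was higher. Of 19 tested targets, 9 passed with TPN against sham, each as lower (median log2 fold change -1.15), 1 was higher and 13 lower with TPN against starvation (median -1.40), and 2 were lower with starvation against sham (median 0.04). Cyp2b10, the marker gene of CAR activity, had 42.3 ± 5.96 CPM in TPN, 212 ± 102 in starvation and 316 ± 23.6 in sham. Gstm1, a glutathione transferase, had 33.9 ± 4.15 CPM in TPN, 153 ± 22.8 in starvation and 127 ± 2.43 in sham. Aldh1a1, a retinal dehydrogenase, had 118.49 ± 1.86 CPM in TPN, 312 ± 39.4 in starvation and 263 ± 15.5 in sham. All 3 were lower in TPN than in either group (adjusted p from 0.00046 to 0.00509 by edgeR's quasi-likelihood test). Cyp2c55 had 1.77 ± 0.368 CPM in TPN, 16.6 ± 3.05 in starvation and 33.9 ± 3.43 in sham, and its family holds similar copies that can share reads. Ces2a, a carboxylesterase, was the target that was higher with TPN against starvation, with 81.5 ± 9.86 CPM in TPN, 41.8 ± 7.19 in starvation and 93.9 ± 14.6 in sham.

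**Figure D4:**
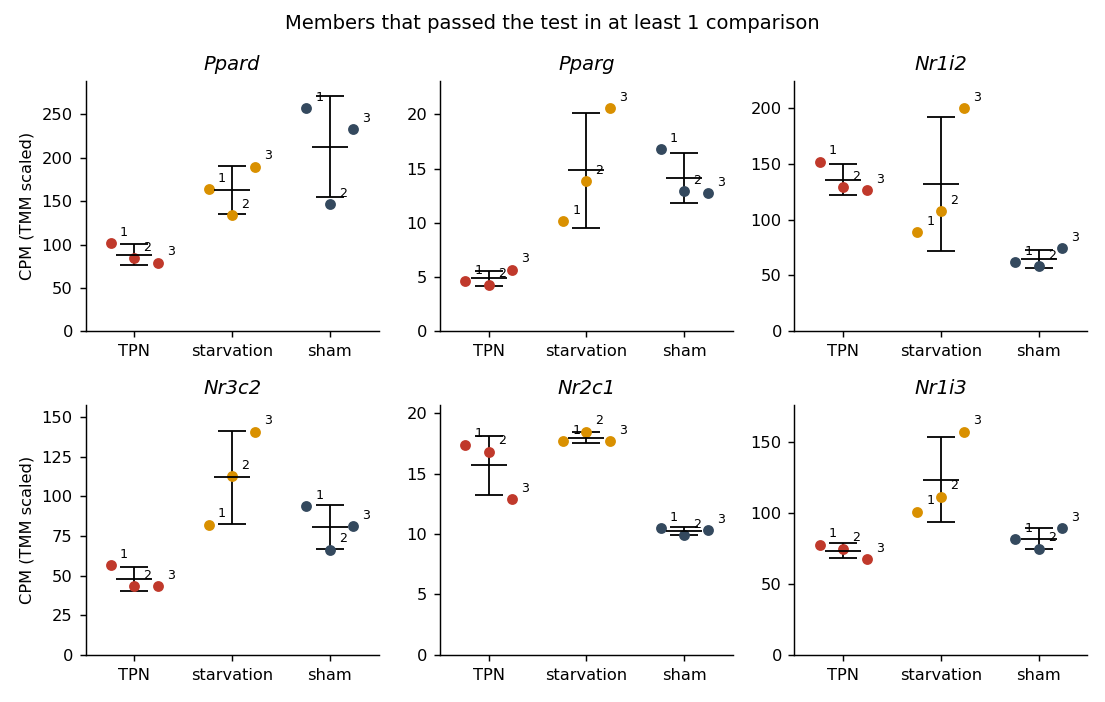
CPM in each library, numbered by replicate, of the 6 members that passed in at least 1 comparison, with the mean and SD of each group (n = 3). TPN libraries lie below all others for Ppard, Pparg and Nr3c2, sham libraries lie below all others for Nr1i2 and Nr2c1, and starvation libraries lie above all others for Nr1i3.

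Hnf4a and Hnf4g, which keep enterocytes in their absorptive state, did not pass in any comparison. Hnf4a differed by -0.11 ± 0.21 with TPN against sham and -0.33 ± 0.21 with starvation against sham (edgeR quasi-likelihood adjusted p = 0.766 and 0.358). Hnf4g (GRCm38 chr3:3508030-3658052) had 369, 306 and 286 CPM in TPN, 302, 367 and 406 in starvation and 296, 162 and 262 in sham, with sham replicate 2 the lowest of the 9. It differed by 0.42 ± 0.24 with TPN against sham and 0.58 ± 0.24 with starvation against sham (adjusted p = 0.295 and 0.185). The share of Hnf4a in the transcripts of both was 60.7% ± 2.67 in TPN, 53.7% ± 3.41 in starvation and 69.3% ± 5.81 in sham (SD, n = 3), with no overlap between any 2 groups. Without sham replicate 2 and starvation replicate 3, Hnf4a was lower with starvation against sham (-0.59 ± 0.10, adjusted p = 0.00577) and higher with TPN against starvation (0.50 ± 0.10, adjusted p = 0.0068).

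Of 14 tested HNF4 target genes, 3 were lower with TPN against sham (median log2 fold change -0.77) and 4 with TPN against starvation (median -0.77), and the median was 0.02 with starvation against sham. Alpi, intestinal alkaline phosphatase, had 1145 ± 355 CPM in TPN, 4565 ± 2719.7 in starvation and 3909 ± 1329.8 in sham. Fabp2, a fatty acid binding protein, had 251 ± 31.8 CPM in TPN, 1125 ± 793 in starvation and 1206 ± 398 in sham. Both passed as lower in TPN against either group, and both had a wide spread in starvation, where replicate 3 held the most enterocyte markers. Alpi and Fabp2 are themselves among those markers, as are the HNF4 targets Vil1, Lct, Apoa4, Apob and Mttp. The HNF4 target list and the enterocyte marker level are therefore not separate observations.

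The steroid receptors of the set were led by Nr3c2, the mineralocorticoid receptor, which binds aldosterone and glucocorticoids and controls epithelial sodium transport. Nr3c2 (GRCm38 chr8:76899442-77245012) had 56.6, 43.2 and 43.5 CPM in TPN, 82.2, 113 and 141 in starvation and 93.9, 66.4 and 81.2 in sham. The TPN libraries were below all others, and starvation and sham overlapped. Nr3c2 fell with TPN against starvation (-1.23 ± 0.22, edgeR quasi-likelihood adjusted p = 0.0154) and did not pass with TPN against sham (-0.75 ± 0.22, adjusted p = 0.0646) or with starvation against sham (0.47 ± 0.22, adjusted p = 0.224). The call held in 19 of 21 alternative fits and was lost without TPN replicate 2 or TPN replicate 3. Without sham replicate 2 and starvation replicate 3 it was lower in TPN against starvation (-0.99 ± 0.16, adjusted p = 0.00291) and against sham (-0.83 ± 0.16, adjusted p = 0.0044).

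Genes that the mineralocorticoid receptor shares as targets with the glucocorticoid receptor were higher in both TPN and starvation than in sham. Of 6 tested, 5 were higher with TPN against sham (median log2 fold change 1.98), 5 with starvation against sham (median 1.84) and 2 with TPN against starvation. Fkbp5, a chaperone of steroid receptors, had 421, 433 and 389.6 CPM in TPN, 166, 162 and 226 in starvation and 19.3, 12.3 and 15.0 in sham, with no overlap between any 2 groups. Sgk1, a kinase that raises sodium uptake, had 807 ± 61.3 CPM in TPN, 814 ± 428 in starvation and 147 ± 10.3 in sham. The glucocorticoid receptor Nr3c1, no member of the set, had 212 to 223 CPM in TPN, 197 to 223 in starvation and 225 to 255 in sham, and did not pass (-0.17 ± 0.14 and -0.24 ± 0.14 against sham).

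Esr1, the alpha estrogen receptor, had 0.494, 1.07 and 1.04 CPM in TPN, 2.31, 1.69 and 2.20 in starvation and 2.06, 4.59 and 2.25 in sham, which is 28 reads over the TPN libraries, 64 over starvation and 91 over sham. Each TPN library was below each library of the other groups, and sham replicate 2 was the highest. The difference with TPN against sham, -1.76 ± 0.49, did not pass (edgeR quasi-likelihood adjusted p = 0.0546). Pgr had 1.15, 0.119 and 1.84 CPM in TPN, 1.52, 0.633 and 0.347 in starvation and 1.28, 6.08 and 1.499 in sham, with sham replicate 2 again the highest. That library also held the most smooth muscle and fibroblast markers, and the 7 fibroblast markers summed to 236 to 302 CPM in TPN, 249 to 330.3 in starvation and 451 to 1073 in sham, and the part of those cells in both receptors was not tested. Nr2f1 and Nr2f2, orphan receptors known from mesenchyme and vessels, did not pass, with Nr2f2 at 20.3 to 25.1 CPM in TPN, 12.6 to 15.5 in starvation and 14.04 to 26.8 in sham, and Nr2f1 with 17 reads over TPN, 20 over starvation and 40 over sham.

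Nr2c1, an orphan receptor that represses genes as a dimer with Nr2c2, was the member that passed with starvation against sham. Nr2c1 (GRCm38 chr10:94148023-94197211) had 17.4, 16.8 and 12.9 CPM in TPN, 17.7, 18.5 and 17.7 in starvation and 10.5, 9.92 and 10.3 in sham. The sham libraries were close together and below all others, and the starvation libraries were close together and above all TPN libraries. Nr2c1 rose with starvation against sham (0.81 ± 0.18, edgeR quasi-likelihood adjusted p = 0.0427) and was at 0.61 ± 0.18 with TPN against sham (adjusted p = 0.0652). The call with starvation held in 7 of 21 alternative fits, and of the 9 fits that left out 1 library only that without starvation replicate 3 kept it, while the log2 fold change stayed within 0.71 to 0.85 over all of these fits. Its partner Nr2c2 had 119, 113 and 103 CPM in TPN, 105, 110.4 and 104 in starvation and 104, 81.3 and 92.4 in sham and did not pass, and Nr2c2 shares 30.7% of its exonic bases with Mrps25 on the opposite strand. Nr2f6 shares 54.4% with Ocel1 in the same way. Nr2e3, known from photoreceptors, had 62 reads over TPN, 27 over starvation and 109 over sham and did not pass.

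The RXR partners, the thyroid hormone and retinoic acid receptors and Rora held no member that passed in any comparison by edgeR, DESeq2 or limma voom. Their smallest adjusted p was 0.102 for Thra with TPN against sham, and by the unadjusted p Thra alone of these was under 0.05, in both comparisons with TPN. Thra had 134, 143 and 126 CPM in TPN, 167, 173 and 219 in starvation and 168, 205 and 180.1 in sham, with every TPN library below the others, and differed by -0.46 ± 0.16 with TPN against sham. Thra shares 5.70% of its exonic bases with Nr1d1 on the opposite strand. Nr1d1 had a mean of 112 CPM in TPN, 160 in starvation and 199 in sham, and its part in the Thra counts was not tested. Thrb had 49.5, 45.9 and 39.2 CPM in TPN, 46.7, 49.2 and 36.2 in starvation and 36.1, 26.1 and 39.3 in sham, and differed by 0.40 ± 0.19. Thra made up 82.8% ± 1.319 of thyroid hormone receptor transcripts per kilobase in TPN, 86.9% ± 3.25 in starvation and 89.6% ± 2.62 in sham. Of 5 tested thyroid hormone target genes 2 were lower with TPN against sham, Me1 (malic enzyme) and Dio1 (a deiodinase). Me1 had 8.14 ± 0.818 CPM in TPN, 32.4 ± 5.12 in starvation and 38.1 ± 5.46 in sham, and was also lower with TPN against starvation.

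Rxra, the main partner receptor, differed by 0.00 ± 0.18 with TPN against sham, 0.09 ± 0.18 with starvation against sham and -0.08 ± 0.18 with TPN against starvation, and its share of RXR transcripts was 77.9% ± 1.41 in TPN, 82.3% ± 1.42 in starvation and 79.8% ± 1.73 in sham. Rxrb had 45.6 to 62.1 CPM in TPN, 37.9 to 45.5 in starvation and 42.5 to 47.7 in sham. Rara, a retinoic acid receptor, had 31.2 to 37.7 CPM in TPN, 37.6 to 42.0 in starvation and 30.4 to 39.2 in sham. Rarg had 4.65 to 7.33 CPM in TPN, 4.86 to 6.94 in starvation and 5.25 to 8.11 in sham. Of 7 tested retinoic acid target genes, Isx, a repressor of carotenoid uptake, rose with TPN against sham (0.63 ± 0.15) and against starvation (0.83 ± 0.15), and Cyp26b1, which degrades retinoic acid, rose with TPN against starvation (1.59 ± 0.35). Hic1 fell with starvation against sham (-1.04 ± 0.23).

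In Nr5a2, Esrrg and Rora, sham replicate 2 and starvation replicate 3 held extreme values. Nr5a2, the crypt and bile acid regulator also called LRH-1, had 45.8, 53.6 and 40.5 CPM in TPN, 35.3, 32.4 and 6.83 in starvation and 32.4, 13.9 and 33.6 in sham. Starvation replicate 3 and sham replicate 2 were the lowest of the 9. Nr5a2 did not pass with all libraries (0.81 ± 0.52 with TPN against sham, edgeR quasi-likelihood adjusted p = 0.347). It was higher without that pair, by 0.54 ± 0.13 with TPN against sham and 0.50 ± 0.12 with TPN against starvation (adjusted p = 0.0114 and 0.0209). The pair was picked from these data and held the lowest values. Leaving it out therefore narrows the spread by itself, for Nr5a2 and for Esrrg below. The same limit holds for Ppard, Nr1i2 and Hnf4a in the fits without the pair given above. In each of these genes sham replicate 2 was the lowest sham library and starvation replicate 3 the highest starvation library. For Nr5a2, TPN replicate 2, the library with the pancreatic acinar signal, was the highest of the 9, and this gene is also known from acinar cells. Without this library too, Nr5a2 was at 0.43 ± 0.11 with TPN against sham and 0.39 ± 0.11 with TPN against starvation (adjusted p = 0.0202 and 0.0387). Esrrg had 9.06, 7.87 and 8.81 CPM in TPN, 14.7, 14.7 and 4.63 in starvation and 15.0, 3.84 and 14.2 in sham, lowest in sham replicate 2 and starvation replicate 3. Without that pair Esrrg was lower in TPN, by -0.72 ± 0.15 against sham and -0.73 ± 0.15 against starvation (adjusted p = 0.00579 and 0.00785). Rora had 14.9, 15.3 and 13.3 CPM in TPN, 12.1, 13.1 and 4.17 in starvation and 10.3, 20.7 and 10.4 in sham, lowest in starvation replicate 3 and highest in sham replicate 2. The summed level of the 5 crypt stem cell markers was 570.4 to 669 CPM in TPN, 135 to 636 in starvation and 561 to 958 in sham, lowest in starvation replicate 3, and their part in these levels was not tested.

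Among the estrogen-related receptors, which bind no known natural hormone and drive mitochondrial genes, Esrra made up 97.9% ± 0.247 of the transcripts per kilobase in TPN, 97.4% ± 1.78 in starvation and 97.2% ± 1.13 in sham. No member of this group passed in any comparison (edgeR quasi-likelihood adjusted p of at least 0.344, with no unadjusted p under 0.05), nor did any by DESeq2 or limma voom. Of 10 tested target genes, 3 were lower with TPN against sham, among them Idh3a of the citric acid cycle and Uqcrc1 of the respiratory chain. Uqcrc1 had 84.2 ± 9.48 CPM in TPN and 140.4 ± 28.1 in sham, and Idh3a had 87.4 ± 2.22 CPM in TPN and 128 ± 5.96 in sham. With starvation against sham Sdhb rose, at 26.6 ± 4.24 CPM in starvation and 12.5 ± 1.71 in sham. Nr6a1, the germ cell nuclear factor, had 35.6, 27.7 and 28.5 CPM in TPN, 28.4, 37.8 and 61.3 in starvation and 26.3, 19.8 and 27.2 in sham and did not pass (0.79 ± 0.27 with starvation against sham, adjusted p = 0.127).

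The NR4A factors Nr4a1, Nr4a2 and Nr4a3 are immediate early genes that act without a known ligand. Nr4a1 had 3.46, 3.46 and 4.08 CPM in TPN, 6.86, 4.33 and 1.16 in starvation and 2.16, 26.0 and 4.75 in sham. The high sham mean came from sham replicate 2, and the other sham libraries lay within the range of starvation. Nr4a1 differed by -1.57 ± 0.85 with TPN against sham and did not pass (edgeR quasi-likelihood adjusted p = 0.268), and without sham replicate 2 and starvation replicate 3 the value was 0.12 ± 0.38. Nr4a2 had 6.41 to 7.83 CPM in TPN, 3.69 to 9.83 in starvation and 4.80 to 5.50 in sham, and Nr4a3 had 1.57 to 3.10 CPM in TPN, 0.116 to 3.59 in starvation and 2.00 to 2.94 in sham. Of 18 other immediate early genes tested, Fosb was the 1 that passed and was lower with TPN and with starvation against sham, with 1.57, 1.19 and 1.76 CPM in TPN, 1.52, 1.48 and 6.25 in starvation and 12.3, 62.4 and 24.7 in sham. Fosb too was highest in sham replicate 2.

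The 3 NR4A genes also shared a promoter window dense in TGACG. Each of their RefSeq windows held 4 matches, a number reached by 76 of the 32851 windows (0.2313%), and they are shown because they are the sequences by which these members resemble each other. TGACG holds a CpG, and these windows held 35 (Nr4a1), 52 (Nr4a2) and 26 (Nr4a3) CpG at 72.3%, 81.7% and 64.7% GC, where the median over all windows was 7 CpG and 52.7% GC. The part of this base composition in the count of matches was not tested. Over all members with a window, 32 of 35 genes and 52 windows, AGGTCA stood in 9, AGAACA in 5 and TGACG in 15, or 17.3%, 9.62% and 28.8% of these windows, whose median was 12.5 CpG. The windows are chr15:101266596-101266895 (plus strand), chr2:57123954-57124253 (minus strand) and chr4:48045055-48045354 (plus strand) on GRCm38.p6, with TGACG or its reverse complement CGTCA in capitals. A match describes letters and not binding.
Nr4a1: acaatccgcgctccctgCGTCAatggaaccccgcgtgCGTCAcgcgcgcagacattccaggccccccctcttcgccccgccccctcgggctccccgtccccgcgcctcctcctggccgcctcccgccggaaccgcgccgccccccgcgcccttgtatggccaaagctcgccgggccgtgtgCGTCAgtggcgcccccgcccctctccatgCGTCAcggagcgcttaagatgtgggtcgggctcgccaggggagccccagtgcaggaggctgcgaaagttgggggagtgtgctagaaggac
Nr4a2: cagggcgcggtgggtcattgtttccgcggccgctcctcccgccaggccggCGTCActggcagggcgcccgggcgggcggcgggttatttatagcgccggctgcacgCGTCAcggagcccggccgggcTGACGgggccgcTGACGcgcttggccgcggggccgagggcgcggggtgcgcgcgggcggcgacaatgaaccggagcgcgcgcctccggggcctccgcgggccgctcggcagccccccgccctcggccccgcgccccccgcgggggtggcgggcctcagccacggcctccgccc
Nr4a3: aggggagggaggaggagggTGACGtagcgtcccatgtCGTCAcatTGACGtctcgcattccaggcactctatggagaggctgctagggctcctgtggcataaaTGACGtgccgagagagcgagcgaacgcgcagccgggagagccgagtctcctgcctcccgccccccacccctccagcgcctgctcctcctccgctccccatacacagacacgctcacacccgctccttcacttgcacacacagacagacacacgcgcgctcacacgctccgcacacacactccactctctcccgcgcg

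Of 22 tested coregulators, the proteins that nuclear receptors recruit, the 1 that passed was Hdac3. Hdac3, the histone deacetylase of the corepressor complex, was lower with TPN against sham (-0.79 ± 0.12) and against starvation (-0.78 ± 0.12), at 21.5 ± 0.627 CPM in TPN, 37.1 ± 2.13 in starvation and 37.3 ± 1.67 in sham (edgeR quasi-likelihood adjusted p = 0.00783 and 0.0104). Of 10 other tested nuclear receptors, Ppara and Nr1h4 were higher with TPN against sham. Nr1h4, the bile acid receptor FXR, had 39.1, 34.9 and 34.9 CPM in TPN, 26.5, 27.1 and 27.4 in starvation and 23.0, 10.99 and 17.1 in sham, with no overlap between any 2 groups. Its TPN libraries were the highest and its sham libraries the lowest. A list of 5 genes under Nr5a2 (3 tested), named for intestinal steroid synthesis, had a median log2 fold change of 1.03 with TPN against sham. None of them passed. One of the tested genes is Nr0b2, which is not a steroid synthesis gene but 1 of the other nuclear receptors. Nr0b2 had a mean of 10.99 CPM in TPN, 4.06 in starvation and 5.36 in sham, so the median is no measure of steroid synthesis genes alone.

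**Figure D5:**
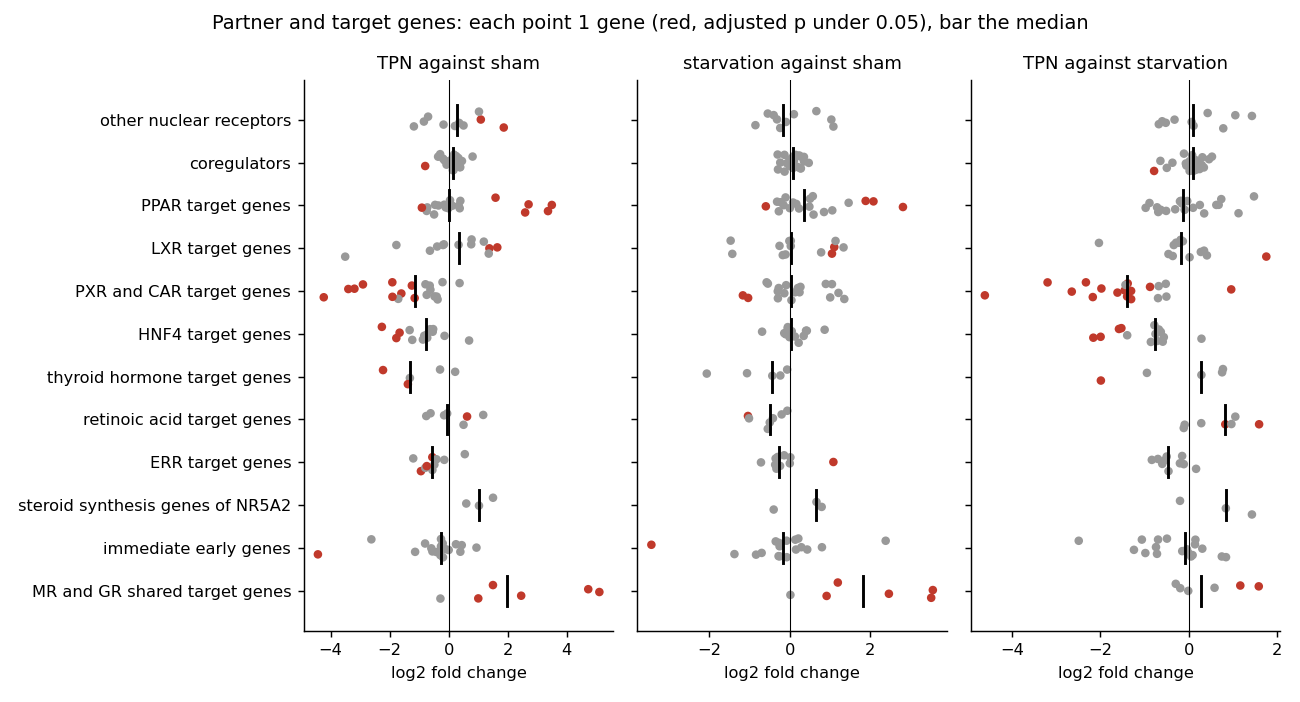
Log2 fold change of every tested gene of the partner and target lists in each comparison, 1 point a gene, with the list median as a black bar and genes at an adjusted p under 0.05 in red. Targets of PXR and CAR lie mostly below 0 in both comparisons with TPN, and the targets shared by the mineralocorticoid and glucocorticoid receptors lie mostly above 0 in both comparisons against sham.

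Without sham replicate 2 and starvation replicate 3, more members passed, and so did more genes overall. With TPN against sham 11 of 32 members passed, 5 higher and 6 lower, where 29.8% of all genes passed (15% higher and 14.8% lower). With starvation against sham 5 passed, 2 higher and 3 lower, where 19.9% of all genes passed (10.9% higher and 9% lower). With TPN against starvation 10 passed, 5 in each direction, where 21.6% of all genes passed (10.1% higher and 11.5% lower). The 7 calls made with all 9 libraries were among them, in the same direction. Members that passed with TPN against sham in this fit and are not valued above were Nr2c1 (0.63 ± 0.17), Nr2f2 (0.59 ± 0.16), Thra (-0.34 ± 0.10) and Rora (0.52 ± 0.15). With starvation against sham these were Nr2c1 (0.80 ± 0.18) and Nr2e3 (-1.69 ± 0.50), and with TPN against starvation Nr1i3 (-0.49 ± 0.10), Nr2f2 (0.74 ± 0.16) and Rxrb (0.46 ± 0.14).

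With TPN replicate 2 also left out, which left 2 libraries a group, 10 members passed with TPN against sham, 4 higher and 6 lower, where 25.8% of all genes passed (12.7% higher and 13.1% lower). There were 5 with starvation against sham, 2 higher and 3 lower, where 19.8% of all genes passed (10.7% higher and 9.06% lower). There were 9 with TPN against starvation, 4 higher and 5 lower, where 18.2% of all genes passed (8.41% higher and 9.79% lower). The 7 calls were again among them, with Ppard at -1.40 ± 0.16, Pparg at -1.47 ± 0.25 and Nr1i2 at 1.07 ± 0.15 with TPN against sham, Nr2c1 at 0.80 ± 0.18 with starvation against sham, and Pparg at -1.17 ± 0.25, Nr3c2 at -0.92 ± 0.18 and Nr1i3 at -0.51 ± 0.12 with TPN against starvation. Rora with TPN against sham and Rxrb with TPN against starvation passed without the pair and did not pass without all 3 libraries.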

How the data were processed

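The deposited values are raw read counts per gene. Per the submitters' processing notes the authors' tools were STAR 2.7.2e and featureCounts 2.0.0, with cutadapt 2.9, FastQC 0.11.8 and DESeq2 1.32.0, and the builds GRCm38 and mm10. Whether counting used strand or kept reads with several matches, and with which annotation, is not given in the sources used here. Per the labels' protocols, libraries were made from RNA bound to oligo(dT) beads with random hexamer priming. In the count table, 9 columns that match no sample were not used.

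Counts of 21868 genes were filtered with filterByExpr (14668 kept, 7200 removed), scaled by TMM and tested in R 4.3.3 with edgeR 4.0.16 (quasi-likelihood test, 1 mean per group over all 9 libraries, 6 residual degrees of freedom), with p-values adjusted by the Benjamini-Hochberg method over all tested genes. Standard errors were taken as the absolute log2 fold change over the square root of F. The fitting steps were tested on simulated data. Alternatives used DESeq2 1.42.0, limma 3.58.1 (voom), other scalings and filters, the compared groups alone, a replicate block, the smooth muscle marker level as a covariate, and left-out libraries. One read was worth 0.0798 to 0.119 CPM after TMM scaling, and reads carry no molecular identifiers, so duplicates cannot be told from separate molecules. Levels per kilobase used the joined exon length in GENCODE M21, which matched 21689 genes by symbol. Promoter windows came from RefSeq GRCm38.p6 and matched 32 members (not Hnf4g, Nr5a1 and Thra).

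Same-group libraries differed by more than sampling noise (chi-square per gene 8.02 to 125). Named genes are the members that passed, the members of highest level, and, per list and comparison, up to 4 genes of smallest adjusted p; further values were chosen after they were seen, and results of some list genes are not reported here. The members and lists were chosen with earlier results of these data known.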

Additional observations from a re-analysis of the deposited data

How the results depend on the processing

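No call of a member changed sign under any alternative. The count of members with TPN against sham, 3 in the report, was 6 with DESeq2, 8 with only the compared groups fitted and 1 with the smooth muscle covariate. It was 11 without sham replicate 2 and starvation replicate 3, a pair picked by marker levels in these data. It was 10 without TPN replicate 2 as well (an alternative chosen after seeing the data), 6 at an adjusted p under 0.1, and 0 to 8 when 1 library was left out. The 0 came without TPN replicate 1, 2 or 3, by edgeR's test, where 7, 8 and 6 members had an unadjusted p under 0.05, and the 8 without starvation replicate 3. The share of all genes that passed, 8.6% in the report, moved too. It was 16.5% with DESeq2, 19.4% with only the compared groups, 2.96% with the covariate and 16.1% at an adjusted p under 0.1. Without TPN replicate 1, 2 or 3 it was 1.45%, 1.49% and 1.62%, and without starvation replicate 3 it was 21.3%. The count with starvation against sham, 1 in the report, was 2 with DESeq2, 5 without the same pair or the same 3 libraries, 3 at an adjusted p under 0.1, and 0 with limma voom, no filter, only the compared groups, the replicate block or the covariate (5 or 6 members at an unadjusted p under 0.05). It was 0 to 3 with 1 library left out. The count with TPN against starvation, 3 in the report, was 10 without that pair, 9 without those 3 libraries and 0 to 5 with 1 library left out. DESeq2 size factors in edgeR and the fit of only the compared groups gave 2 there, and the DESeq2 size factors also gave 2 with TPN against sham. Of all genes, 5.84% passed with TPN against starvation in the report, and 0.831% to 8.35% with 1 library left out. The DESeq2 size factors gave 5.30% there and 7.59% with TPN against sham, and the fit of only the compared groups gave 3.78% with TPN against starvation.

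The labels do not say whether replicate numbers pair the samples. Correlations of deviations between same-numbered libraries ran from -0.300 to 0.378, which with 3 libraries a group cannot decide it. With the replicate block the counts were 2, 0 and 2, where 3.79%, 0.484% and 2.63% of all genes passed. Nr1i2, Nr2c1 and Nr1i3 did not pass in it (edgeR quasi-likelihood adjusted p = 0.0628, 0.109 and 0.0908). Over all genes the count with TPN against sham, 1261 in the report, was 2421 with DESeq2, 556 with the block and 216 to 4425 over all alternatives. With starvation against sham, 541 in the report, it was 1654 with DESeq2, 71 with the block and 2 to 2949 over all. With TPN against starvation, 857 in the report, it ran from 124 to 3205. Scaling by library totals moved the median of all genes by 0.189 (log2) with TPN against sham and 0.143 with TPN against starvation, and lower calls were then 46.8% of calls with TPN against sham, and 48.6% with upper quartile factors, against 59.6%. Of 89 member comparisons that did not pass, 20 passed in at least 1 alternative and 41 changed sign in at least 1. The same counts were not made over all genes, so they say nothing particular to the members. The cause of these shifts was not tested. At 1 read per 0.0798 to 0.119 CPM, changes in Rxrg, Nr5a1 and Esr2 were not detectable.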
